A study of Homo sapiens with 36 samples.

Results

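ATF4 knockout and wild-type cells were compared after 4 h with a dimerizer that switches on the kinase PERK, with gene expression measured by RNA sequencing. The cells were U2OS, an established human osteosarcoma line, and both genotypes carried Dmr-PERK, a form of PERK that is activated when the added ligand brings its copies together. The comparison used all 3 knockout and all 3 wild-type libraries labelled 4 h, which is 6 of the 36 libraries, and all genes. Of 57665 genes in the tables, 19043 had enough counts to be tested. The labelled dose was the same in both groups, with no unit. The series also holds both genotypes without dimerizer and at 2, 8, 16 and 24 h. The untreated wells and those at 2 and 8 h are used below only to show how the 4 h difference stands beside its neighbours. All cells grew in medium with serum, added nonessential amino acids and beta-mercaptoethanol. The labels do not say whether the knockout line was 1 clone, where the edit lies, or whether wells were separate cultures, so p values measure only the spread between these wells, which may be technical. No cells without Dmr-PERK and no untreated wells collected at 4 h were analysed here. A level difference at 4 h therefore holds both what already separated the lines and what the treatment added.

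PERK is 1 of the kinases that phosphorylate the initiation factor eIF2. Phosphorylated eIF2 slows most translation but raises translation of ATF4, a basic leucine zipper (bZIP) factor, and this program is called the integrated stress response (ISR). ATF4 binds DNA as a dimer with partners such as the C/EBP proteins. Its known targets supply amino acids and charged tRNAs, restore redox balance, and, when stress lasts, include factors of cell death. Levels are given as CPM, reads scaled to a common library size with TMM factors, and differences as the log2 fold change of knockout over wild type with its standard error (SE). A gene is called lower or higher at an adjusted p under 0.05 in edgeR's quasi-likelihood test with Benjamini-Hochberg adjustment over all tested genes. The SE is approximate: it is the absolute log2 fold change divided by the square root of that test's F statistic.

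The 6 libraries held 8751971 to 11979159 counts and counts for 27477 to 29113 genes, and mitochondrial transcripts made up 5.19 to 5.36% of them. The first principal component carried 80.2% of the variance and separated the genotypes without overlap. Replicate libraries differed by more than counting noise, with a chi-square per degree of freedom of 1.34 to 1.86. Of 9 markers of the mesenchymal and osteoblast lineage, VIM, COL1A1, SPARC and FN1 had the most counts, 30745 to 77302 per genotype. TAGLN had 8887 counts in wild type and 7123 in knockout, RUNX2 1227 and 1044, THY1 758 and 437, and CDH11 498 and 614. COL1A2 had only 22 and 14 counts. At 4 h, 3 of the 9 were called lower and 1 higher. The leukocyte marker CD3E had 0 counts in both, and PTPRC had 12 counts in wild type and 16 in knockout. Of 6 tested epithelial markers 2 were lower (CDH1 and ESRP1) and 1 was higher (CLDN4), and the list summed to 18.3 to 21.9 CPM per wild-type library and 18.0 to 18.9 CPM per knockout library. KRT19 had 0 counts in both. None of 3 tested endothelial markers was called. The part of these other cell type markers in the results below was not tested.

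ATF4 mRNA was lower in the knockout but still present. ATF4 (chr22:39519695-39522685, forward strand, GRCh38) was at 684, 668 and 694 CPM in the wild-type libraries and at 482, 483 and 497 CPM in the knockout libraries. The groups did not overlap, as in 38.9% of all tested genes (3764 lower and 3649 higher), and the log2 fold change was -0.49 ± 0.03 (adjusted p = 2.5e-16). Untreated, the means were 318 CPM in wild type and 266 CPM in knockout. The tables sum reads over the whole gene, so this level does not test whether ATF4 protein was lost.

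At 4 h, 2720 genes were lower in the knockout, 14.3% of those tested, and 2443 were higher, 12.8% of those tested. The strongly lower genes were fewer than the strongly higher ones but more abundant. Among genes changed at least 2-fold there were 287 lower and 341 higher, of which 26 and 32 had 3 counts or fewer in a group. The 287 lower genes summed to 14298 CPM in wild type and 4588 CPM in knockout, while the 341 higher genes summed to 879 CPM in wild type and 2878 CPM in knockout. On the deposited TPM scale (limma on log2(TPM + 1)), calls were 1447 lower and 2192 higher, so that lower genes made up 39.8% of calls against 52.7% on counts. The median over all tested genes was 0.00 on counts and 0.05 on that scale.

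**Figure D1:**
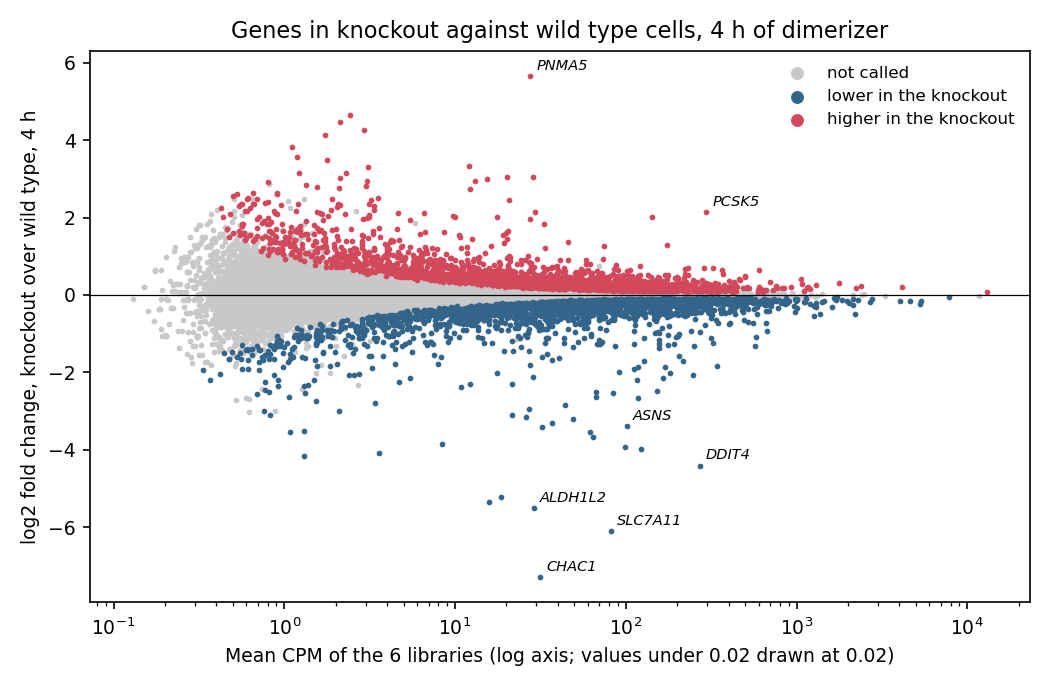
Log2 fold change of knockout over wild type at 4 h against the mean CPM of the 6 libraries (log axis), 1 point per gene, for the 18919 genes with more than 3 counts in each group. Blue and red points are called lower and higher. Among abundant genes the strongest differences lie below 0 (DDIT4, SLC7A11, ASNS), and PNMA5 and PCSK5 stand out above 0.

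Some of the genes much lower in the knockout had an ATF4 binding motif near their start. The motif searched was TGATGCAA, the core of a C/EBP-ATF response element, on both strands of the RefSeq promoters (GRCh38.p14; 250 bases before the start site and 50 from it), for which 12600 of the 19043 tested genes had an entry. It occurred in 15 of 162 promoters of genes at least 2-fold lower (9.26%), in 0 of 202 at least 2-fold higher, in 73 of 12584 tested genes (0.58%) and in 304 of all 35116 promoters (0.866%). Of all genes called lower, 27 of 2092 had it (1.29%), and of those whose difference was lower at 4 h than untreated, 14 of 337 (4.15%). STC2, DDIT4, SESN2, ASNS, TRIB3, VLDLR, DDIT3, CEBPB, ATF3, ATF5 and GDF15 had no match in this window. SLC7A11 and ALDH1L2 had no entry. The 7 sites printed here are examples from strongly lower genes of the stress, transport, ER and tRNA groups described below. Not every such site is printed: SLC1A5 also had one. Each line gives 30 bases 5′ to 3′ with the motif in capitals, read on the strand that carries it in this orientation.
FGF21 (chr19:48755459-48755488): ctcctcctcccTGATGCAAtcctggtgttt
CHAC1 (chr15:40953251-40953280): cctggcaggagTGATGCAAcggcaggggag
SLC1A4 (chr2:64989381-64989410): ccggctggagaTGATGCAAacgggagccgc
HERPUD1 (chr16:56931955-56931984): tgggcacgggcTGATGCAAcccgccgcgtc
AARS (chr16:70289675-70289704): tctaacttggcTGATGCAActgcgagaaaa
MARS (chr12:57488053-57488082): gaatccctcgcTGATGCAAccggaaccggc
CEBPG (chr19:33374060-33374089): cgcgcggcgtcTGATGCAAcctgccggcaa

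The 15 sites lay between 209 bases before and 10 bases after the annotated start, 11 of them on the strand opposite to the gene. Of their 15 genes, 12 were already called lower in untreated knockout cells and 7 had a larger deficit at 4 h than untreated by the test of that difference. With the base after TGATG left free (TGATGNAA, which includes TGATGCAA), the shares were 15.4% for genes at least 2-fold lower and 1.98% for those at least 2-fold higher, against 2.16% of tested genes. The cAMP response element TGACGTCA was in 1.85% of the former, 2.48% of the latter and 2.98% of tested genes. These are matches of letters in a short window and not measured binding. LINC01397, 1 of the 15 genes, was at 0.657 and 0.231 CPM in the means (log2 fold change -1.51) and was no longer called with the replicate number as a block, without a filter, with DESeq2, or without wild-type replicates 1 or 3 or knockout replicates 1 or 2.

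Of 29 ISR transcription factors and effectors, 27 were lower in the knockout, 1 was higher and 1 was not called, with a median log2 fold change of -1.32 against 0.00 over all tested genes. Some genes stand in more than 1 of the lists described here. Beside every list count at 4 h stand the shares over all tested genes, 14.3% lower and 12.8% higher. The strongest deficits were in effectors. CHAC1, which degrades glutathione, was at 62.6, 63.9 and 61.7 CPM in wild type and at 0.165, 0.609 and 0.445 CPM in knockout (-7.30 ± 0.20, adjusted p = 7.2e-30). The wild-type wells lay within a few percent of each other and every knockout well was under 1 CPM. STC2, a secreted glycoprotein, had 105 counts over the wild-type libraries and 0 over the knockout libraries, at least 38-fold lower when the 0 is read as 3 counts over the group. FGF21, a stress hormone, had 76 counts and 0, at least 27.5-fold lower. ADM2, a peptide hormone, fell from 119 to 9.39 CPM in the means and NUPR1, a small stress-induced chromatin protein, from 66.9 to 6.77 CPM. These secreted and stress-induced products were thus scarce or undetected in the knockout at 4 h, while all were measurable in wild type.

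DDIT4 and SESN2, brakes on the growth kinase complex mTORC1, were called lower in the knockout before treatment and were much further apart at 4 h. DDIT4 (chr10:72273920-72276036, forward strand), also called REDD1, an inhibitor of mTORC1, was at 538, 511 and 502 CPM in wild type and at 23, 26 and 24.3 CPM in knockout (-4.41 ± 0.07, adjusted p = 2.6e-37). Untreated, its means were 66.5 and 43.7 CPM (-0.60). SESN2, a leucine sensor that restrains mTORC1, was at 224, 236 and 232 CPM in wild type and 14.6, 15.7 and 13.4 CPM in knockout (-3.98 ± 0.08), against -0.60 untreated. For both genes the knockout wells at 4 h lay below the untreated knockout mean, which was 24.3 CPM for SESN2. Among the 16 tested genes of the wider list of mTORC1 brakes and lysosomal regulators, 4 were lower and 5 higher, with a median of 0.07. The higher ones included RRAGD, a Rag GTPase, at 4.59 CPM in wild type and 8.29 CPM in knockout (0.85 ± 0.16).

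TRIB3, a pseudokinase that restrains ATF4 and CHOP signalling, was at 211, 196 and 201 CPM in wild type and at 30.8, 34.4 and 31.3 CPM in knockout (-2.66 ± 0.06). VLDLR, a lipoprotein receptor, was at 46.4 and 10.7 CPM in the means (-2.11 ± 0.08). GDF15, a secreted stress cytokine, was at 28.7, 29.1 and 27.5 CPM in wild type and at 17.4, 17.1 and 17.0 CPM in knockout (-0.73 ± 0.11), although it was called higher in untreated knockout cells (0.30 ± 0.09). PPP1R15A, also called GADD34, the inducible subunit that directs dephosphorylation of eIF2, was at 120, 143 and 143 CPM in wild type and 94.6, 106 and 105 CPM in knockout (-0.41 ± 0.06). Among the 15 genes plotted by library it had the smallest difference, followed by ATF4 itself. KLHL24 was the only member called higher (0.56 ± 0.14), and that call did not hold on either TPM scale. CDKN1A, the cell cycle inhibitor p21, had a log2 fold change of -0.03 and was not called.

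**Figure D2:**
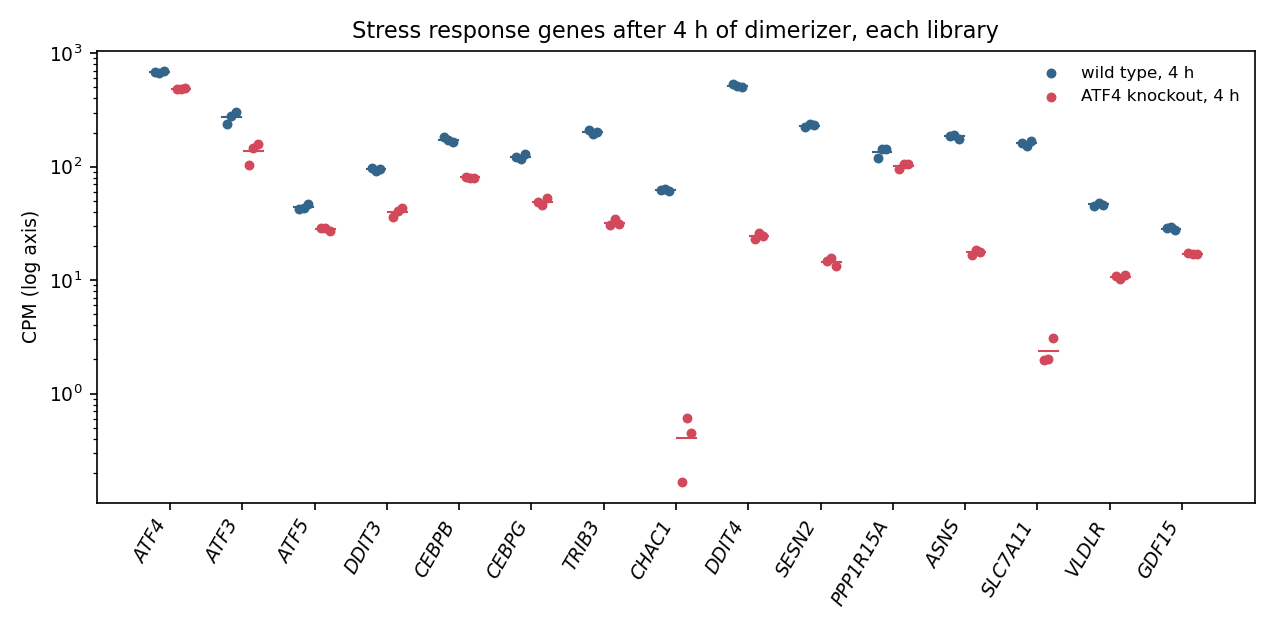
CPM of ATF4 and 14 ISR genes in each of the 3 wild-type (blue) and 3 knockout (red) libraries at 4 h, on a log axis; horizontal lines are means. In all 15 genes the wild-type points lie above the knockout points, with the widest gaps for CHAC1 and SLC7A11 and narrow ones for PPP1R15A and ATF4. The same order without overlap held for 3764 of the 19043 tested genes.

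Transcription factors of the ATF and C/EBP families went both ways. Of 23 tested, 10 were lower, 5 higher and 8 not called, with a median of -0.08. JDP2, a repressor that pairs with AP-1 factors, had the lowest fold change of the 23, at 77.8 CPM in wild type and 10.9 CPM in knockout (-2.85 ± 0.10). CEBPG, a partner of ATF4, was at 121, 117 and 129 CPM in wild type and 49.0, 46.3 and 52.7 CPM in knockout (-1.32 ± 0.06). DDIT3, which encodes the death-associated factor CHOP, was at 96.9, 92.1 and 96.4 CPM in wild type and 35.9, 40.4 and 42.9 CPM in knockout (-1.27 ± 0.07). So the CHOP transcript remained at a level above the untreated wild-type mean of 31.2 CPM in all 3 knockout wells. CEBPB (-1.10 ± 0.06) and ATF3 (-1.02 ± 0.10) were lower at 4 h, while their untreated differences were 0.05 and 0.03 and not called. ATF3 wells were spread most, at 240, 277 and 301 CPM in wild type and 105, 145 and 160 CPM in knockout. ATF5, another factor controlled by translation, was at 44.3 and 28.3 CPM in the means (-0.65 ± 0.07). CREM (0.34 ± 0.08) was higher in the knockout at 4 h and untreated (0.46). HLF, a bZIP factor of the PAR family, had the highest fold change at a low level, 0.347 and 1.24 CPM (1.83 ± 0.51), and its call ended on both TPM scales and without knockout replicate 1.

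Enzymes of amino acid and one-carbon metabolism formed the next most reduced list. Of 25 tested, 21 were lower, 1 was higher and 3 were not called, with a median of -1.17. ALDH1L2, the mitochondrial 10-formyltetrahydrofolate dehydrogenase, was at 61.4, 55.8 and 53 CPM in wild type and 1.4, 1.22 and 1 CPM in knockout (-5.52 ± 0.13). Transcripts of all 3 serine synthesis enzymes were lower. PHGDH was at 185 and 12.2 CPM (-3.93 ± 0.07), PSAT1 at 88.6 and 9.60 CPM (-3.21 ± 0.07) and PSPH at 38.5 and 4.42 CPM (-3.11 ± 0.11) in the wild-type and knockout means. ASNS, which makes asparagine, was at 188, 191 and 177 CPM in wild type and 16.8, 18.3 and 17.8 CPM in knockout (-3.40 ± 0.06). The transsulfuration enzymes CBS (113 and 9.50 CPM) and CTH (46.8 and 5.28 CPM), which lead to cysteine, were also lower. MTHFD2, of the mitochondrial folate pathway, was at 400 and 96.4 CPM (-2.06 ± 0.05). The deficits differed in how much was there before treatment: PHGDH stood at -3.09 and CBS at -2.75 untreated, whereas CTH stood at -0.71 and PSPH at -1.08. GLUL, glutamine synthetase, was the exception, at 8.16, 5.71 and 6.92 CPM in wild type and 27.6, 29.9 and 28.0 CPM in knockout (2.03 ± 0.12), and at 2.06 untreated.

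Of 22 tested amino acid transporters, 9 were lower, 4 higher and 9 not called, with a median of -0.30. SLC7A11 (chr4:138164097-138242349), the cystine importer, was at 162, 153 and 167 CPM in wild type and 1.98, 2.03 and 3.12 CPM in knockout (-6.10 ± 0.09, adjusted p = 2.4e-38). Its partner chain SLC3A2 was at 457 and 192 CPM in the means (-1.25 ± 0.04). The glycine carrier SLC6A9 (-2.94 ± 0.08), the neutral amino acid carriers SLC1A4 (-2.50 ± 0.07) and SLC1A5 (292 and 72.6 CPM) and the glutamine carrier SLC38A1 (146 and 36.2 CPM) followed. Carriers of the plasma membrane led this group, while the lysosomal transporters SLC36A1 (0.38 ± 0.06) and SLC38A9 (0.24 ± 0.08) were among the 4 higher. Both of these small differences lost their call on the TPM scales, and that of SLC38A9 also with DESeq2, without a filter, and without wild-type replicates 1 or 3 or knockout replicate 2. SLC38A2 was lower at 4 h (-0.70 ± 0.05) with an untreated difference of 0.10 that was not called.

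Cytosolic tRNA synthetases, which load amino acids onto tRNAs, were lower in 16 of 20 cases and higher in none, with a median of -0.85. YARS was at 260, 265 and 250 CPM in wild type and 47.8, 45.6 and 45.2 CPM in knockout (-2.48 ± 0.04). CARS (-2.21 ± 0.05), AARS (-1.85 ± 0.04), GARS (-1.84 ± 0.03) and MARS (-1.71 ± 0.04) came next. The 4 members not called were FARSA (-0.09), HARS (-0.08), DARS (-0.02) and QARS (0.07). Of the 17 mitochondrial synthetases, encoded by other genes, 3 were lower (17.6%, against 14.3% of all tested genes) and none higher. Their median was -0.10, and the largest difference was AARS2 at 21.2 and 16.0 CPM (-0.41 ± 0.08).

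Of 20 glutathione and NRF2 target genes, 17 were lower and none higher, with a median of -0.29. Apart from CHAC1 and SLC7A11 the differences were small. SRXN1, which repairs oxidised peroxiredoxins, was at 154 and 104 CPM in the means (-0.57 ± 0.04). NFE2L2, which encodes NRF2 itself, was at 208, 206 and 214 CPM in wild type and 149, 159 and 156 CPM in knockout (-0.44 ± 0.04), and was not different by the test untreated (0.06). GPX4, which detoxifies lipid peroxides, was not called (-0.02).

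Endoplasmic reticulum (ER) genes were split. Of 28 tested ER chaperones and degradation factors, 8 were lower, 3 higher and 17 not called, with a median of -0.03. The lower ones were led by XBP1 (chr22:28794555-28800597), the transcription factor of the IRE1 arm, at 278, 261 and 266 CPM in wild type and 54.4, 62.9 and 65.4 CPM in knockout (-2.15 ± 0.05). HERPUD1, of ER-associated degradation, was at 178, 174 and 181 CPM and 47.0, 45.7 and 48.4 CPM (-1.92 ± 0.05). HSPA5, the chaperone BiP, was at 885, 891 and 884 CPM and 477, 461 and 449 CPM (-0.94 ± 0.03). All 3 stood much closer untreated, at -0.23, -0.43 and -0.18. Other major chaperones were not called: HSP90B1 (0.01), CALR (-0.03) and PDIA3 (-0.01). PDIA4 was higher by 0.15 ± 0.04.

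The machinery that sets eIF2 phosphorylation differed in places. Of 14 genes for eIF2 kinases, phosphatase subunits, eIF2 and eIF2B, 6 were lower and 2 higher, with a median of -0.06. EIF2S2, the beta subunit of eIF2, was at 278, 272 and 270 CPM in wild type and 132, 131 and 133 CPM in knockout (-1.05 ± 0.04). The other eIF2 subunits EIF2S3 (-0.26 ± 0.04) and EIF2S1 (-0.10) were lower by less. EIF2AK3, which encodes PERK, was at 746, 788 and 772 CPM in wild type and at 862, 873 and 890 CPM in knockout (0.19 ± 0.03). Reads of the Dmr-PERK transgene and of the endogenous gene were not told apart here, so equal dosing of the kinase between the lines was not tested.

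**Figure D3:**
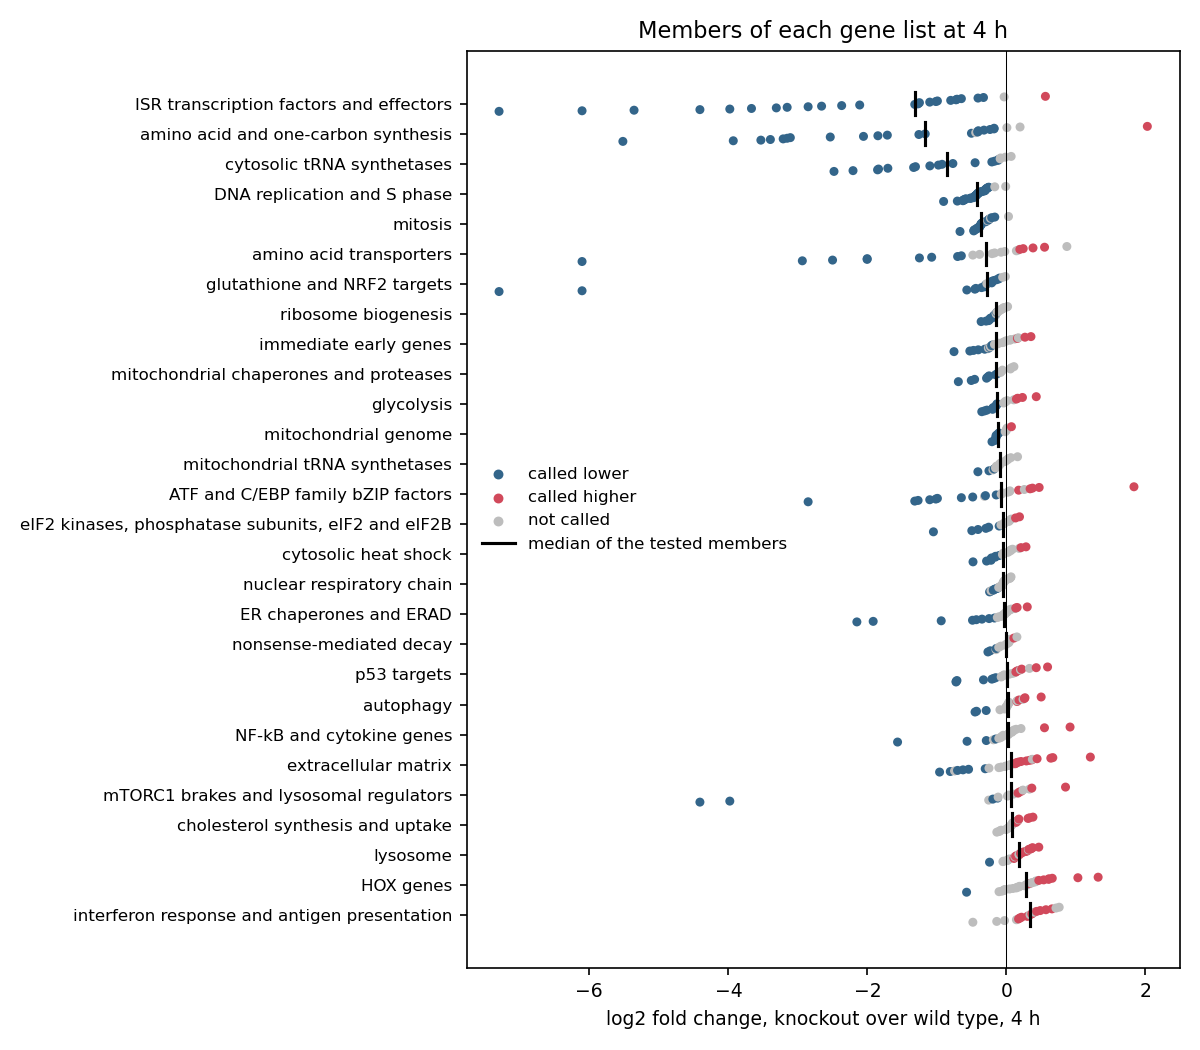
Log2 fold change at 4 h for the tested members of 28 gene lists, 1 point per gene, ordered by the list median (black bar); blue and red are called lower and higher, grey not called. FGF21 and STC2, with 0 knockout counts, are not drawn. The ISR, amino acid and tRNA synthetase lists extend far below 0, whereas replication and mitosis genes lie between -0.90 and 0.03.

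Most cell division genes were lower, each by less than 2-fold. Of 41 DNA replication genes, 39 were lower and none higher, with a median of -0.42. MCM2, of the replicative helicase, was at 96.3, 105 and 99.6 CPM in wild type and 52.8, 50.3 and 57.7 CPM in knockout (-0.90 ± 0.05). CDC6, which loads that helicase, was at 86.0 and 56.2 CPM in the means. Of 26 mitosis genes, 23 were lower and none higher, with a median of -0.36, among them CCNB1 (196 and 142 CPM, -0.47 ± 0.04) and TPX2 (247 and 185 CPM, -0.42 ± 0.04). In untreated cells all 41 replication genes and 25 of the 26 mitosis genes were already lower, and for 1 of these 67 genes, UHRF1, the deficit differed between 4 h and untreated by the test, being smaller at 4 h. In bulk RNA, fewer cycling cells and less of these transcripts per cell cannot be told apart.

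Lysosomal genes were higher. The list of 29 had 18 higher members, 1 lower (GLA) and 10 without a call, with a median of 0.18. The GLA call ended with DESeq2, without a filter, with only the libraries of the contrast, on both TPM scales, and without wild-type replicate 1, wild-type replicate 3 or knockout replicate 1. TPP1, a lysosomal peptidase, was at 121, 134 and 134 CPM in wild type and 174, 183 and 181 CPM in knockout (0.47 ± 0.04). GRN, progranulin, was at 215 and 279 CPM (0.38 ± 0.03). Untreated, 21 of the 29 were higher, with a median of 0.21. The members that moved also include LIPA, ASAH1 and SCARB2. Of 21 autophagy genes, 5 were higher (23.8%, against 12.8% of all tested genes) and 3 were lower (14.3%, the same share as over all tested genes). ATG12 led the higher ones (74.7 and 106 CPM, 0.50 ± 0.05). Among the lower ones were the cargo receptor SQSTM1 (558 and 414 CPM, -0.43 ± 0.03) and the membrane tag MAP1LC3B (-0.29 ± 0.04).

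Genes of antigen presentation were also higher. Of 19 tested members of the interferon and antigen presentation list, 11 were higher and none lower, with a median of 0.34. HLA-B was at 70.8, 69.3 and 69.9 CPM in wild type and 111, 108 and 111 CPM in knockout (0.65 ± 0.04), HLA-C at 23.1 and 34.3 CPM and B2M, the light chain of class I molecules, at 264 and 326 CPM (0.30 ± 0.03). HLA genes are similar to each other and reads can be shared between them. The classic interferon-induced genes MX1 (-0.48), ISG15 (-0.03) and IFIT3 (0.76) were not called. Untreated, 12 of the 19 were higher, with a median of 0.27, and the 4 h difference was not called apart from the untreated one for any of the 19.

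Cholesterol genes were higher in fewer cases at 4 h than before treatment. Of 24 tested, 8 were higher at 4 h and 18 untreated, and none was lower at either time. The medians were 0.08 and 0.22. HMGCS1, an early enzyme of the pathway, was at 381, 412 and 430 CPM in wild type and 498, 546 and 551 CPM in knockout at 4 h (0.38 ± 0.04), and stood at 0.60 untreated. HMGCS1, SREBF2 and DHCR7 had a smaller difference at 4 h by the test of the change.

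Matrix genes went both ways, with 12 of 28 higher and 6 lower. LUM, lumican, was at 20.0, 21.2 and 20.3 CPM in wild type and 48.8, 47.2 and 45.4 CPM in knockout (1.21 ± 0.08). SPARC was higher by 0.21 ± 0.02. TNC, tenascin C, was at 201, 205 and 208 CPM and 108, 102 and 104 CPM (-0.96 ± 0.04), and LOX, which crosslinks collagen, at 72.9 and 49.8 CPM. Untreated, 12 were also higher and 6 lower, and LUM stood at 1.03.

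The strongest higher genes were nearly silent in wild type. PNMA5 (chrX:152988824-152994127), of the paraneoplastic antigen family, was at 1.02, 1.16 and 0.988 CPM in wild type and 52.1, 57.1 and 52.5 CPM in knockout (5.66 ± 0.15, adjusted p = 2.5e-30). TENM1, a teneurin adhesion protein (0.278 and 5.6 CPM), SLC27A6, a fatty acid transport protein (0.173 and 4.65 CPM), and SLC30A8, a zinc transporter (0.174 and 4.04 CPM), followed the same pattern. Untreated differences were 6.0 for PNMA5, 4.44 for TENM1, 3.69 for SLC27A6 and 5.26 for SLC30A8, so these genes separated the lines before dimerizer. GIMAP5 had 1 count in wild type and 66 in knockout (ratio 60.8, exact 95% interval 10.5 to 2439, counting error only). TMEM233 had 0 and 34 counts, at least 10.4-fold higher. Among abundant genes PCSK5, a proprotein convertase, had the largest fold of the 5 higher genes with the greatest CPM gain, at 81.8, 114 and 129 CPM in wild type and 444, 489 and 510 CPM in knockout (2.15 ± 0.09; 2.26 untreated). The other 4 were MT-CO1 (0.07), PLEC (0.20), AHNAK (0.22) and MT2A (0.32); the MT-CO1 call did not hold without knockout replicate 3.

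Remaining genes with large deficits had varied roles. RAB39B, a small GTPase, was at 34.3, 31.1 and 27.4 CPM in wild type and 0.661, 1.02 and 0.557 CPM in knockout (-5.36 ± 0.17). SPX, a peptide hormone gene, was at 36.3 and 0.985 CPM in the means (-5.21 ± 0.16), and GABRG1, a GABA receptor subunit, at 6.80 and 0.384 CPM (-4.09 ± 0.28). FIBIN had 33 counts in wild type and 0 in knockout, at least 11.9-fold lower. GAGE12C had 323 counts and 1, but its family of near-identical copies makes the assignment of reads uncertain. Large losses in CPM were also seen in ERRFI1, an inhibitor of the EGF receptor, at 845, 826 and 784 CPM and 319, 334 and 335 CPM (-1.31 ± 0.04), and FLNC, filamin C, at 2573 and 1823 CPM (-0.50 ± 0.04). ACTB (-0.23 ± 0.02) and MT-CO3 (-0.17 ± 0.02) lost many CPM at a small fold.

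The 4 h difference was set against that in untreated cells, which shares no library with it. In untreated cells 2267 genes were lower in the knockout (11.9% of tested) and 2213 higher (11.6%). Of the genes lower at 4 h, 1548 were also lower untreated, which is 56.9% of the 4 h list and 68.3% of the untreated list. Of those higher at 4 h, 1356 were also higher untreated, 55.5% and 61.3% of the lists. Among the strong genes, of 287 genes at least 2-fold lower at 4 h, 141 were called lower untreated, and of 341 at least 2-fold higher, 237 were called higher untreated. Across the 10522 genes of at least 10 CPM, Pearson's r of the log2 fold changes was 0.78, as a description across genes, which are not independent.

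The change in the difference was tested directly as the difference at 4 h minus that in untreated cells. It was lower for 455 genes (2.39% of tested) and higher for 169 (0.887%). Without knockout 4 h replicate 2 the higher count was 106. The largest negative changes among called genes of at least 1 CPM were in DDIT4 (-3.81 ± 0.11), SESN2 (-3.37 ± 0.13), RAB39B (-3.01 ± 0.46), TYRP1 (-2.73 ± 0.49) and FUT1 (-2.57 ± 0.34), beside STC2, for which no fold is given because the knockout had 0 counts. Of the 29 ISR genes 25 were in this lower set, as were 14 of 25 amino acid and one-carbon enzymes, 12 of 20 cytosolic tRNA synthetases, 10 of 22 amino acid transporters, 6 of 28 ER genes and 9 of 26 immediate early genes. Neither of the 2 cell division lists and none of the 19 antigen presentation genes had a member in it.

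**Figure D4:**
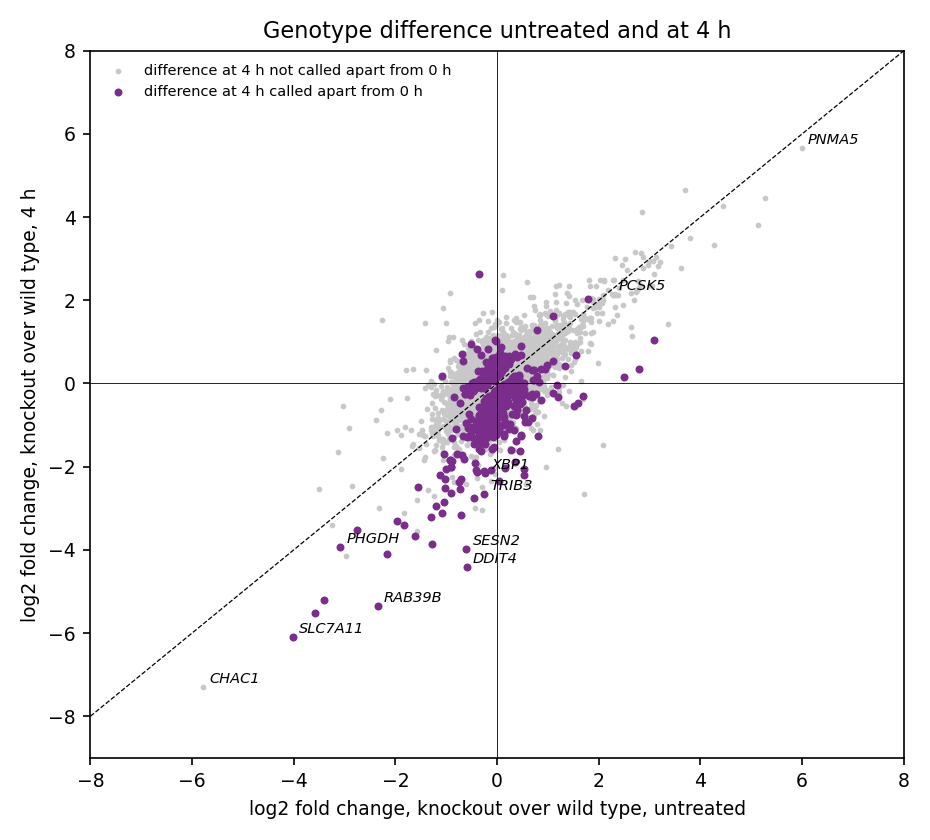
Log2 fold change of knockout over wild type at 4 h (vertical) against untreated (horizontal), 1 point per gene, for 16698 genes of at least 1 CPM in 1 of the 4 h groups, with more than 3 counts in each of them and at least 0.1 CPM in each untreated group. Purple points are genes whose 2 differences were called apart; the dashed line marks equality. DDIT4, SESN2, TRIB3 and XBP1 lie between -0.60 and -0.23 untreated, each called lower, and far below that at 4 h. PNMA5 and PCSK5 lie close to the dashed line.

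Immediate early genes, which respond within minutes to many signals, were lower in 9 of 26 cases and higher in 3, with a median of -0.15. MYC was at 496, 513 and 510 CPM in wild type and 287, 306 and 308 CPM in knockout (-0.75 ± 0.04), against -0.24 untreated. EGR1 was at 385, 472 and 470 CPM and 282, 335 and 341 CPM (-0.47 ± 0.08), with no called difference untreated (-0.02). DUSP1, a MAP kinase phosphatase, was at 373 and 259 CPM (-0.53 ± 0.07). CTGF, 1 of the 3 higher members, overlapped between the groups, at 1042 to 1299 CPM in wild type and 1263 to 1532 CPM in knockout.

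Several cell death and p53 target genes were among the lower ones. Of 22 p53 targets, 7 were lower and 6 higher, with a median of 0.01. GADD45A, a stress sensor of growth arrest, was at 480, 531 and 514 CPM in wild type and 288, 318 and 319 CPM in knockout (-0.72 ± 0.05). BBC3, the death factor PUMA, was at 24.4 and 14.8 CPM (-0.71 ± 0.11), and TNFRSF10B, the death receptor DR5, at 234 and 186 CPM (-0.33 ± 0.04). ZMAT3 (0.43 ± 0.04), TP53INP1 (0.59 ± 0.10) and RRM2B (0.22 ± 0.04) were higher and were also higher untreated. Inflammatory genes moved little, with 4 of 21 lower, led by TRAF1 (208 and 140 CPM) and IL1A (5.66 and 1.93 CPM), and 2 higher, LIF (302 and 440 CPM, 0.55 ± 0.04) and TNF (4.44 and 8.43 CPM).

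Direction differed between the times in few genes. In 35 genes the knockout was lower at 4 h and higher untreated, and in 14 the reverse held. The following were named after their values were seen. SLFN5, of the Schlafen family, was at 47.4, 48.8 and 48.9 CPM in wild type and 14.5, 16.6 and 16.6 CPM in knockout at 4 h (-1.61 ± 0.09), and at 13.7 and 18.3 CPM untreated (0.45). FAM84B (-1.11 ± 0.07 at 4 h, 0.34 untreated) and the ubiquitin ligase SIAH2 (-0.98 ± 0.07 and 0.19) crossed in the same way. PMAIP1, the death factor NOXA, was at 211 and 146 CPM at 4 h (-0.54 ± 0.04) and 93.1 and 105 CPM untreated. In all 4 the wild-type mean at 4 h was above the untreated one, while the knockout mean was above it for PMAIP1 and below it for the other 3. Of the reverse cases, TNFRSF11B, the bone factor osteoprotegerin, was at 6.89 and 11.2 CPM at 4 h and 20.2 and 16.5 CPM untreated.

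HOX genes set body position in development. Of 29 tested, 8 were higher at 4 h, 1 was lower and 20 were not called, with a median of 0.28, while 1 was called untreated. HOXB9 was the lower one, at 88.0, 88.8 and 95.7 CPM in wild type and 62.0, 58.1 and 63.3 CPM in knockout (-0.57 ± 0.06). HOXB3 was at 19.7, 17.4 and 16.2 CPM and 25.4, 28.3 and 27.6 CPM (0.61 ± 0.08), and HOXB6 at 1.53, 3.38 and 3.66 CPM and 5.12, 5.99 and 6.46 CPM (1.03 ± 0.21). HOXB3 and HOXB6 overlap on 1 strand in the annotation, so their reads may be shared. For HOXB9 the difference was lower at 4 h than untreated by the test (-0.67 ± 0.09), and for HOXB3 and HOXB6 it was higher (0.71 ± 0.11 and 1.06 ± 0.28).

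Other lists moved by small amounts. Of 32 ribosome biogenesis genes, 17 were lower and none higher, with a median of -0.15; NPM1 was at 921 and 784 CPM. Of 20 glycolysis genes, 11 were lower and 4 higher, with ENO1 at 1782 and 1432 CPM (-0.31 ± 0.02) and the glucose carrier SLC2A1 at 149 and 175 CPM (0.23 ± 0.04). LONP1, a mitochondrial protease, was at 97.2 and 60.2 CPM (-0.69 ± 0.05) and HSPA9, a mitochondrial chaperone, at 375 and 264 CPM (-0.51 ± 0.03), in a list of 14 of which 8 were lower. Cytosolic heat shock genes were lower in 9 of 20 cases, led by DNAJB1 (179 and 128 CPM, -0.48 ± 0.04), and 7 of 28 nuclear respiratory chain genes were lower, led by CYC1 (-0.24 ± 0.04). Transcripts of the mitochondrial genome differed by at most 0.21, with MT-ND2 at -0.21 ± 0.03. Nonsense-mediated decay factors were lower in 3 of 14 cases (21.4%) and higher in 1 (7.14%), against 14.3% and 12.8% of all tested genes. By chromosome, the medians over tested genes lay between -0.05 on chromosome 3 and 0.05 on X.

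The 4 h difference was also compared with those at 2 and 8 h. Against 2 h, it was lower for 355 genes (1.86% of tested) and higher for 232 (1.22%). The higher count fell when any 1 of the 4 h libraries was left out. It was 111, 156 and 140 without wild-type replicates 1, 2 and 3. Without knockout replicates 1, 2 and 3 it was 130, 121 and 146. It was also 129 with only the libraries of the contrast and 133 with DESeq2. SESN2 (-2.11 ± 0.12), STC2 and ANGPT4, an angiopoietin (-2.28 ± 0.51), led the lower genes. FGFR3, a growth factor receptor, stood at 0.06 at 2 h and 0.98 at 4 h, a call on the 4 h level that did not hold on either TPM scale. XBP1 moved from -1.07 at 2 h to -2.15, HSPA5 from -0.24 to -0.94, and TRIB3 from -1.09 to -2.66. CHAC1 did not differ between these times by the test (-7.36 at 2 h). PPP1R15A stood at 0.03 at 2 h, so its deficit was present at 4 h and not at 2 h, a change of -0.44 ± 0.08 (adjusted p = 0.00016, edgeR).

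From 4 to 8 h, the difference became lower for 712 genes (3.74% of tested) and higher for 1538 (8.08%). Without wild-type 4 h replicate 1 the higher count was 982. The balance turned on the TPM scales, with 481 lower and 300 higher on log2(TPM + 1) and 453 and 293 on log2(TPM + 0.1), and with a 2-fold minimum, with 126 lower and 30 higher. ASNS went to -4.35, PHGDH to -5.02, SPX to -7.25 and GDF15 to -1.88 at 8 h, each a larger deficit than at 4 h by the test. The difference in SLC7A11 was -6.63 at 8 h and not called apart from that at 4 h. SESN2 narrowed to -3.49 and MYC to -0.13, and ATF4 mRNA itself to 0.00, at 725 and 726 CPM in the 8 h means. EGR1 turned from -0.47 at 4 h to 1.02 at 8 h, a change of 1.49 ± 0.12.

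**Figure D5:**
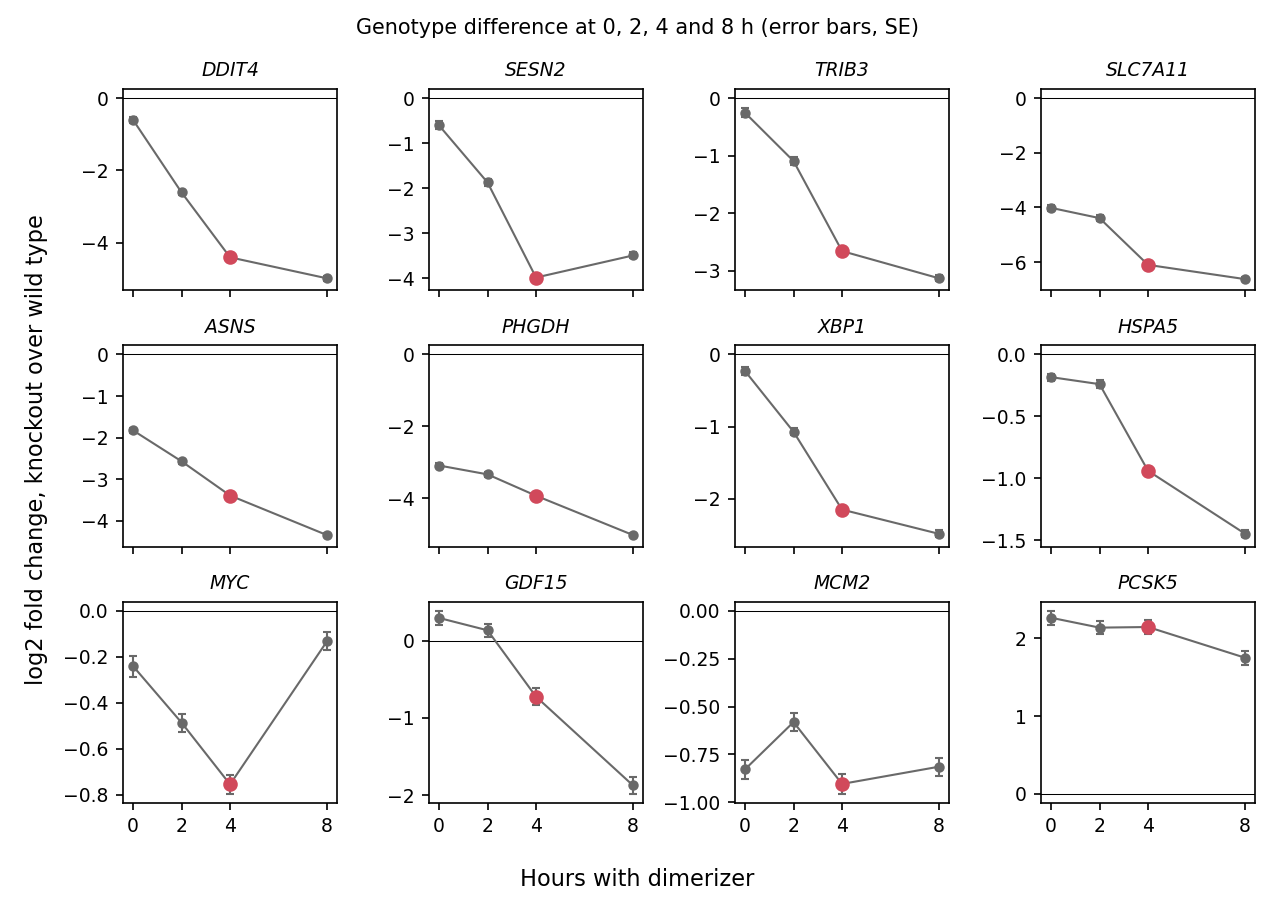
Log2 fold change of knockout over wild type at 0, 2, 4 and 8 h with dimerizer for 12 genes; error bars are SE, the red point marks 4 h, and the vertical scales differ between panels. DDIT4 falls from -0.60 to -4.41 by 4 h, GDF15 crosses 0 between 2 and 4 h, MYC is lowest at 4 h, and MCM2 and PCSK5 stay on 1 side of 0 throughout.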

How the data were processed

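RNA sequencing of 36 libraries (12 groups of 3 wells) is held in 2 gene tables. Per the labels, RNA was isolated from 24-well plates, and directional libraries were made from 1000 ng and sequenced on a NovaSeq. Per the submitters' processing notes, FastQC 0.11.5 and Salmon 0.9.1 were used with GRCh38. The sources used here do not give the annotation release, the strand setting or the step from transcripts to genes. The authors deposited expected counts, of which 75.3 to 78.0% per library at 4 h were whole numbers (tolerance 1e-06), and TPM, whose smallest value was 0.102292 in every column. Counts were rounded for the tests. TPM served only as an alternative, since the TPM columns of the 3 untreated knockout libraries did not match their count columns best, unlike the other 33. Their correlations with their own counts were 0.91, 0.94 and 0.50 for replicates 1, 2 and 3. Untreated knockout replicate 3 was left out of the limma fits on TPM.

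Genes were filtered by filterByExpr and scaled by TMM, and 1 mean per group was fitted to all 36 libraries with edgeR 4.0.16 (quasi-likelihood test; limma 3.58.1, R 4.3.3), and genes were called at a Benjamini-Hochberg adjusted p below 0.05. Contrasts set knockout against wild type at 4 h and untreated, and the 4 h difference minus the untreated, minus the 2 h and from the 8 h difference. Genes with 3 counts or fewer in a group are given by summed counts per library size, with the exact 95% interval of the ratio or, at 0 counts, the ratio when 0 is read as 3 counts; both cover counting error only.

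Members, lists and tests were chosen with earlier results of these data known. Genes named are ATF4 and 14 ISR genes, the 12 most changed each way of at least 1 CPM without overlap, the 5 with the largest CPM difference each way, per list up to 4 with the smallest adjusted p and up to 3 against the majority, and the most changed in each difference of differences (6 each way against untreated, 3 for 2 and 8 h). Further list members and the genes that crossed direction were named after their values were seen. Some genes the rule names are not reported here. Positions are from GENCODE 29, which 16650 of the tested genes matched by identifier and version; 1911 genes share a symbol.

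Replicate numbers paired the 4 h libraries by their values: deviations from group means of same-numbered wild-type and knockout libraries correlated at 0.139, 0.159 and 0.164 over 10522 genes. The labels do not state a pairing. At 0 h the same-numbered pairs correlated at 0.098, -0.007 and -0.068, and a differently numbered pair reached 0.105. The same-numbered pairs were at 0.071, 0.144 and -0.006 at 2 h and at 0.141, 0.055 and 0.131 at 8 h. Alternatives were RLE scaling, no filter, the replicate block, only the libraries of the contrast, DESeq2 1.42.0, limma on log2(TPM + 1) and log2(TPM + 0.1), a 2-fold minimum and each library left out. The block with only the libraries of the contrast was added after seeing the data.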

Additional observations from a re-analysis of the deposited data

Results flagged for a closer look

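The genotype difference at 4 h differed from that at other times by the test of the difference itself (edgeR), and the values are given here with no explanation. Against untreated cells it was lower for 455 genes and higher for 169, against 2 h lower for 355 and higher for 232, and from 4 to 8 h it became lower for 712 and higher for 1538. This last balance was the opposite on log2(TPM + 1), with 481 lower and 300 higher, and with a 2-fold minimum, with 126 and 30. Among single genes with counts in all 4 groups, the difference moved down against untreated for DDIT4 (-3.81), SESN2 (-3.37), RAB39B (-3.01), TYRP1 (-2.73) and FUT1 (-2.57). TYRP1, a pigment enzyme, was at 1.84, 3.14 and 2.37 CPM in wild type and 0.331, 0.508 and 0.780 CPM in knockout at 4 h. FUT1, a fucosyltransferase, was at 15.6 and 1.10 CPM at 4 h and 2.85 and 1.17 CPM untreated.

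The difference moved up for TTC30B (1.41), HIST1H4H (1.23), GNB3 (1.22), HOXB6 (1.06) and ANO1 (1.01). These genes were low, at 1.72 to 5.49 CPM in the wild-type means at 4 h. The 4 h call of TTC30B ended with DESeq2 and without any 1 of the 6 libraries, that of GNB3 with DESeq2 and on both TPM scales, and those of HIST1H4H and ANO1 on both TPM scales. GNB3 also lost its call without wild-type replicates 1 or 3 or knockout replicates 1 or 3, and HIST1H4H without wild-type replicate 3.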

How the results depend on the processing

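The counts of calls kept within 1.5 times of those reported under RLE scaling, without a filter and with the replicate block (at 4 h 2721 lower and 2458 higher with the block), and for 9 of the 10 counts with only the libraries of the contrast and with DESeq2. The exception in both was the higher count against 2 h, at 129 and 133. The block ended the calls of CTC-435M10.3 and LINC01397 among 225 genes followed and changed no other of their calls. With the block on only the libraries of the contrast, 4 h calls were 2724 and 2417.

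With a 2-fold minimum, lower and higher calls were 287 and 341 at 4 h, 133 and 344 untreated, 103 and 11 for 4 h minus untreated, 52 and 11 for 4 h minus 2 h, and 126 and 30 for 8 h minus 4 h. On log2(TPM + 1) the lower count at 4 h was 1447, untreated counts 990 and 1033, 4 h minus untreated 224 and 78, 4 h minus 2 h 140 and 62, and 8 h minus 4 h 481 and 300, so that lower calls outnumbered higher ones there, as with a 2-fold minimum. On log2(TPM + 0.1) they were 1414, then 976 and 935, 202 and 68, 126 and 55, and 453 and 293. The cause was not tested, and untreated knockout TPM columns did not match their counts.

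Leaving out 1 library gave 2387 to 2545 lower and 1949 to 2065 higher at 4 h, 1703 to 2052 and 1628 to 2082 untreated, 378 to 479 and 106 to 156 for 4 h minus untreated, 288 to 448 and 111 to 252 for 4 h minus 2 h, and 544 to 735 and 982 to 1428 for 8 h minus 4 h. Of the 225 genes, 167 were called in every alternative in which they were tested, 58 lost the call in at least 1, and 0 reversed. Not all 225 were tested with only the libraries of the contrast. Depth limits genes under 1 CPM. At 4 h, 124 tested genes had 3 counts or fewer in a group, and some of these were above 1 CPM in the other group, such as GAGE12C at 11.1 CPM in wild type.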
